A study of Mus musculus with 15 samples.

Results

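The microRNA content of mouse CD4 T cells that had been stimulated for 65 h and then kept without stimulation in medium with IL-2 until day 7 was compared with that of cells at the end of the stimulation. The comparison used 3 of the 15 one-colour arrays of the series, namely the single day 7 array and the 2 arrays at 65 h, and each probe was placed against its level on the 2 naive arrays. All cells came from spleen and lymph nodes of C57/B6 mice aged 6 to 8 weeks and were isolated with magnetic beads carrying antibody to CD4. The day 7 cells had spent 65 h on plate-bound antibodies to CD3 and CD28 before the rest. The 65 h cells had the same antibodies until they were taken, and the naive cells had no treatment. The 2 arrays of rested cells restimulated on these antibodies for 18 h are given beside the results, and pairs of arrays at 6, 12, 24 and 42 h of the first stimulation entered the fit for their spread. Samples were mixed populations of bead-isolated cells, so a lower level can stand for fewer cells with a microRNA or for less of it per cell, which cannot be told apart here.

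MicroRNAs are short RNAs that sit in Argonaute proteins and repress messenger RNAs through pairing with them. CD3 antibody stands in for antigen at the T cell receptor and CD28 antibody for costimulation, and CD4 T cells stimulated in this way divide and are known to lose much of their naive microRNA content while inducing a smaller set. IL-2 is a growth and survival cytokine that keeps activated T cells alive once receptor stimulation has ended.

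No table used here pairs the probe IDs with microRNA names, so probes are given by ID, no sequence is shown, and the labelled cell type could not be checked against marker microRNAs. Of the 2191 probes of the deposited log2 table, 740 were tested because they were detected on both arrays of a group or on the day 7 array. Probes with neighbouring numbers often moved together. The median correlation over the 15 arrays was 0.73 for 430 neighbouring pairs of tested probes, as a description of probes measured on the same arrays, and the 740 probes fell into 203 runs of neighbouring numbers (gaps of at most 2). Counts of probes are therefore not counts of microRNAs. The arrays lay on 2 slides, and the day 7 array was on slide 1 with 1 array of every other group. The scanner file of the first 42 h array stood apart, with a median spot brightness of 466 against 21 to 23 on the other 14, although its column in the log2 table correlated with that of the second 42 h array at 0.983. The day 7 array had 765 of 2500 probes above background, within the range of 640 to 950 on those 14 arrays. Precision is set by the number of arrays. Whether the arrays of a pair stand for different mice, cultures or only different hybridisations is not in the labels, and every p-value therefore reflects the spread of the arrays alone, part or all of which may be technical.

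The day 7 array differed from naive cells at more probes than from any stimulated group. At least 1 log2 (2-fold) separated it from the first and second naive arrays at 180 and 204 of the 740 probes. The counts were 93 and 130 for the 24 h arrays, 143 and 145 for the 65 h arrays, and 123 and 80 for the restimulated arrays. The restimulated array on its own slide was the nearest of all 14, with 10.8% of probes at least 1 log2 apart, and the naive array on slide 2 was the farthest, with 27.6%. Arrays of 1 group also differed. The 65 h pair was at least 1 log2 apart at 98 probes (13.2%) and the restimulated pair at 123 (16.6%), against 44 (5.95%) for the naive pair. The spread at 65 h was thus not small beside the distance of the 65 h arrays from day 7.

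**Figure D1:**
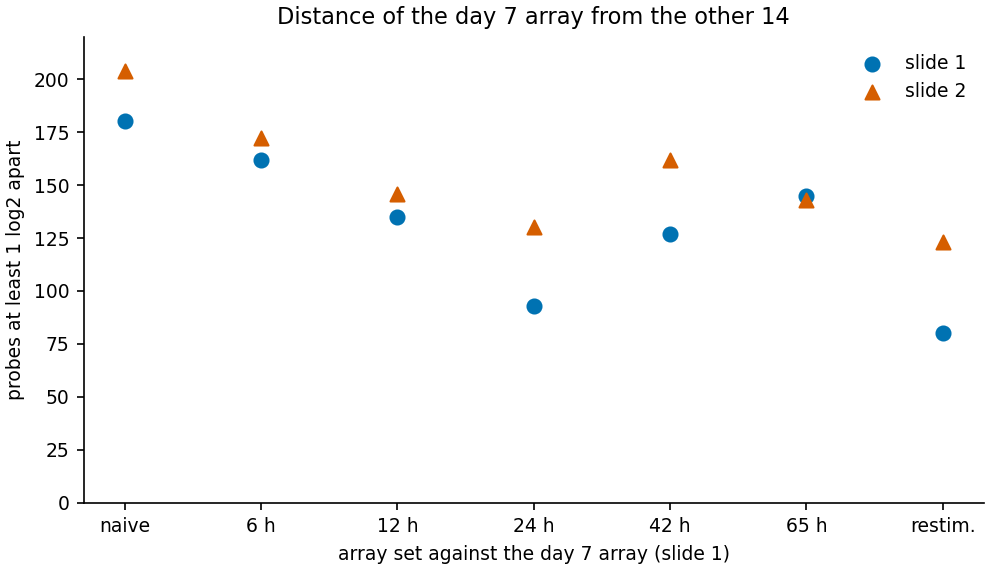
Number of the 740 tested probes at which the day 7 array differed by at least 1 log2 from each of the other 14 arrays. Groups run along the horizontal axis from naive to restimulated, circles mark arrays on slide 1 and triangles arrays on slide 2. The naive arrays lie highest, at 180 and 204 probes, and the restimulated array on slide 1 lowest, at 80.

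Against the 65 h cells, 29 probes (3.92% of those tested) differed at day 7 by limma with Benjamini-Hochberg adjustment at 0.05 and had both 65 h values on one side of the day 7 value. More rose than fell. There were 23 higher probes (3.11%), by 1.05 to 2.79 on the log2 scale with a median of 1.77, and 6 lower probes (0.811%), with differences of -2.32 to -1.16 and a median of -1.86. The higher probes formed 15 runs of neighbouring numbers and the lower probes 6. On slide 1 alone, the differences were 0.99 to 2.36 for the 23 higher probes and -2.12 to -1.03 for the 6 lower ones. Their direction there was fixed by the call, which required both 65 h values on one side of day 7. The count rested on the normalization and on single arrays. It was 61 with slide as a block, 5 when the first and 3 when the second 65 h array was left out, 66 without either restimulated array, and 0 or 1 on 4 normalizations of the scanner signal by limma (28 and 27 at an unadjusted p under 0.05 where it was 0; the spread of day 7, with 1 array, was taken from the other groups). On scanner signal without the first 42 h array, 1 probe was higher and 5 were lower.

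UCSF033_000542 showed the largest increase among the called probes. Its level was 11.79 at day 7, against 8.43 and 9.58 at 65 h, a log2 difference of 2.79 (SE 0.60, limma adjusted p = 0.0344), or 6.93-fold on the scale of the deposited table. The day 7 value lay above both 65 h values, which themselves lay over 1 log2 apart. Without 1 of the 65 h arrays the difference was 2.22 or 3.37, and the call was kept under 7 of 24 alternatives. UCSF033_000543, its neighbour, had 11.73 at day 7, against 8.45 and 9.47 at 65 h (difference 2.76, SE 0.62, limma adjusted p = 0.0400).

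UCSF033_000357 showed the largest decrease among the called probes. It had 6.27 at day 7, against 8.80 and 8.39 at 65 h, a difference of -2.32 (SE 0.29, limma adjusted p = 0.00657) or 5.01-fold lower. Both 65 h arrays lay more than 2 log2 above the rested cells, and leaving out either left the difference between -2.53 and -2.12. UCSF033_000425 followed, with 6.84 at day 7, against 9.09 and 8.53 at 65 h (difference -1.97, SE 0.35, limma adjusted p = 0.0271). That call was lost without either 65 h array, at adjusted p = 0.123 and 0.0506 in limma.

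Size alone, without the test, picked out 103 probes (13.9% of those tested) that lay at least 1 log2 from the 65 h mean with both 65 h values on one side. Of these, 60 (8.11%) were higher at day 7 and 43 (5.81%) lower, in 34 and 26 runs of neighbouring numbers. The 103 are close in number to the 98 probes by which the 65 h arrays differed from each other. That count sets 1 array against 1 array, with no condition on sides. Counted in the same way, day 7 differed from the first and second 65 h arrays at 143 and 145 probes. On the day 7 array and both 65 h arrays 95 of the 103 were detected. The bound of 1 log2 cut through a dense range, with 44 probes within 0.1 of it, the smallest difference inside just past 1 and the largest outside at 0.99.

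Placed against naive, 33 of the 103 probes had been at least 1 log2 from naive at 65 h and were within 1 log2 of it at day 7. Another 24 were nearer to naive than at 65 h and still at least 1 log2 away, and 18 had moved farther in the direction of the first stimulation. Away from naive at day 7 and not at 65 h were 21. A further 7 were within 1 log2 of naive at both times, and 0 had crossed to the other side by the bound. Earlier stages and restimulated cells did not enter these classes. The classes reuse the 65 h and day 7 values that chose the probes. Error in those values alone can therefore move probes towards the naive level or, through the single day 7 value, away from it. Of the 18 probes farther from naive, 15 were higher at day 7 than at 65 h. Of the 21 away from naive at day 7 and not at 65 h, 15 were higher, and of the 33 back near naive, 21 were lower.

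**Figure D2:**
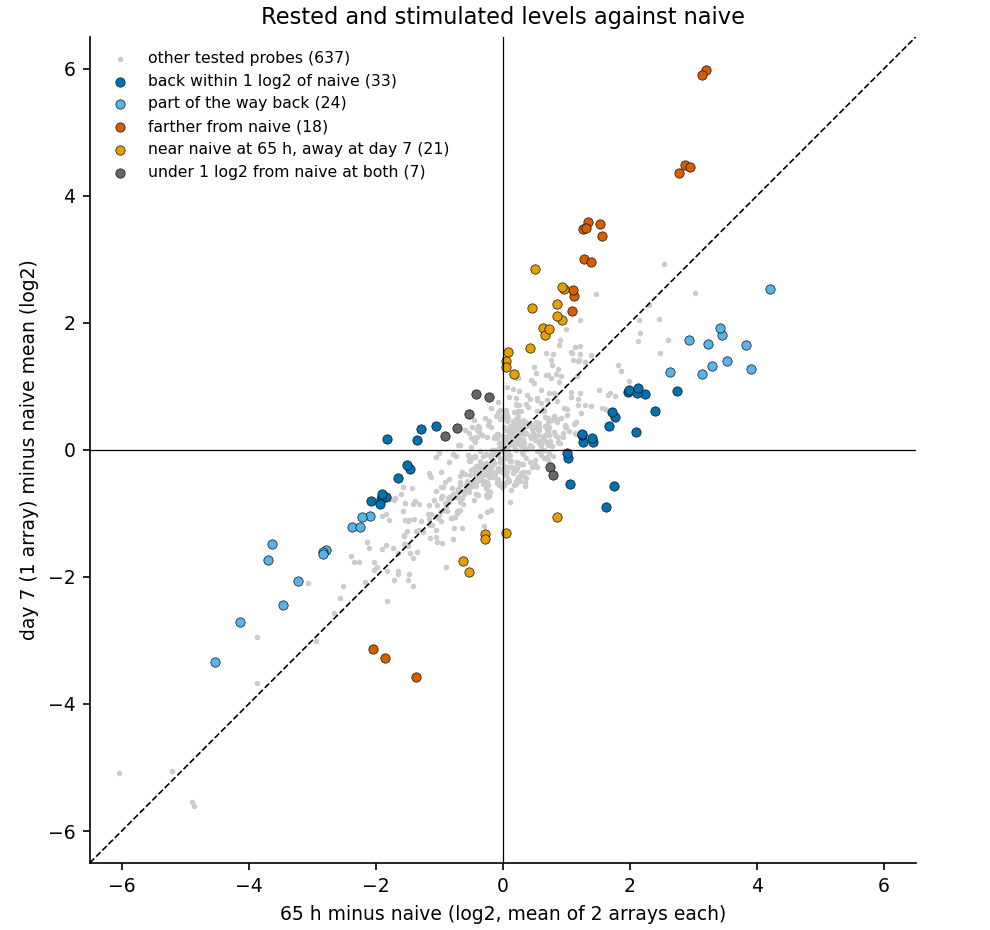
Level at day 7 minus the naive mean (vertical axis, log2) against level at 65 h minus the naive mean (horizontal axis, log2) for the 740 tested probes. Coloured points are the 103 probes at least 1 log2 apart between day 7 and 65 h, by their place against naive, grey points are the other 637, and the dashed line marks equal levels. Probes with large 65 h differences mostly keep their side of naive at day 7, and none of the coloured points crosses from 1 log2 on one side to 1 log2 on the other.

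**Figure D3:**
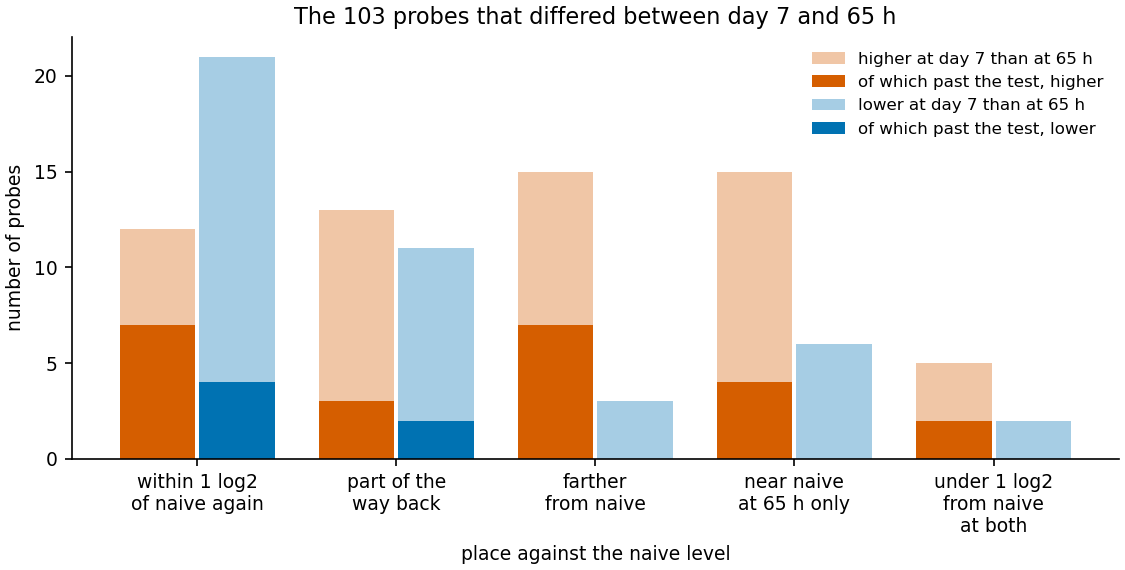
Number of probes in each class of the 103, with probes higher at day 7 left of probes lower at day 7 and the part past the limma test in full colour. The 18 probes farther from naive hold 7 calls, all higher, and the 33 within 1 log2 of naive again hold 7 higher and 4 lower calls.

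Among the 33 probes back within 1 log2 of naive, 12 were higher at day 7 than at 65 h. Their median lay at -0.37 relative to naive at day 7, against -1.74 at 65 h. The 21 lower probes had a median of 0.28 above naive at day 7, against 1.72 at 65 h. Of the 12, 7 passed the test, and of the 21, 4 did, UCSF033_000357 among them. Its naive arrays read 6.94 and 6.75, so that the day 7 value of 6.27 lay below both, and its level at 24 and 42 h had already been near that at 65 h. UCSF033_000358 had the largest difference of the class, with 5.94 at day 7, against 9.11 and 7.83 at 65 h (difference -2.53, SE 0.64), and did not pass (limma adjusted p = 0.0625, and 0.0146 with slide as a block). Its naive arrays read 6.71 and 6.98, above the day 7 value.

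The 24 probes part of the way back were 13 higher and 11 lower, of which 3 and 2 passed the test. Medians relative to naive were -1.62 at day 7, against -2.84 at 65 h, for the higher probes, and 1.65 at day 7, against 3.41 at 65 h, for the lower ones. UCSF033_000425 belonged here, since its day 7 level of 6.84 stayed above the naive values of 5.64 and 5.41. UCSF033_000843 had the largest difference of the class, with 6.51 at day 7, against 8.78 and 9.51 at 65 h and 5.38 and 5.10 in naive cells. That difference of -2.64 (SE 0.65) missed the threshold (limma adjusted p = 0.0582, and 0.0486 with slide as a block).

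Farther from naive than at 65 h lay 15 higher probes in 5 runs and 3 lower probes in 1 run. The higher probes had a median of 3.48 above naive at day 7, against 1.38 at 65 h, and 7 of them passed the test. UCSF033_000542 led them, with naive values of 5.76 and 5.87, so that its difference from naive was 5.98 at day 7 (SE 0.60, limma adjusted p = 0.000323). It had climbed along the course, with group means of 5.81 in naive cells, 9.0 at 65 h and 11.79 at day 7. The longest run of called probes was also in this class. It held 5 probes among 6 consecutive numbers, with levels of 8.50 to 9.36 at day 7, against 6.51 to 6.91 on the first and 6.81 to 7.40 on the second 65 h array, and 5.05 to 5.97 on the naive arrays. Each of the 5 was higher on the day 7 array than on either 65 h array, by 1.81 to 2.25 from their mean (limma adjusted p = 0.0271 for each). The 3 lower probes, UCSF033_000743 to UCSF033_000745, formed a separate run. They had differences of -2.21 to -1.09 from 65 h and did not pass (limma adjusted p of 0.501 to 0.676). Their day 7 levels were 8.15 to 9.62, against 10.18 to 11.58 on the first and 9.34 to 10.50 on the second 65 h array.

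Away from naive at day 7 and not at 65 h were 21 probes, 15 higher and 6 lower. Of these, 4 of the higher and 0 of the lower ones passed the test. Some probes of the class had been away from naive at earlier stages. UCSF033_001594, which did not pass, read 6.40 and 5.87 at 12 h, against 4.61 and 4.79 in naive cells. The higher probes had a median of 1.92 above naive at day 7, against 0.63 at 65 h, and 15 of the 21 were detected on the day 7 array and both 65 h arrays. UCSF033_000772 had the largest difference in this class and the lowest adjusted p of the higher calls. Its level was 7.29 at day 7, against 4.65 and 5.23 at 65 h, a difference of 2.35 (SE 0.24, limma adjusted p = 0.00233). It was detected on 1 of the 2 arrays at 65 h and was not well above background on either naive array, where it read 4.45 and 4.44. The day 7 level was at least 5.93-fold above naive, taking as bound the lowest value of a detected probe on each naive array. Its values of 4.36 to 4.60 at 6 to 42 h were all near the level of dim probes, about the column medians of 4.38 to 4.41. The call was kept under 19 of 23 alternatives and lost on scanner signal scaled to the 75th percentile and with 3 groups in the fit. The lower probes of the class had a median of -1.36 relative to naive at day 7, against -0.28 at 65 h.

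Of the 7 probes within 1 log2 of naive at both times, 5 were higher and 2 lower at day 7, and 2 of the higher ones passed. The largest difference among them belonged to UCSF033_001679, with 6.94 at day 7, against 5.81 and 5.49 at 65 h. Its naive values of 5.77 and 6.37 bridged the gap, and it did not pass (difference 1.29, SE 0.51, limma adjusted p = 0.207).

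**Figure D4:**
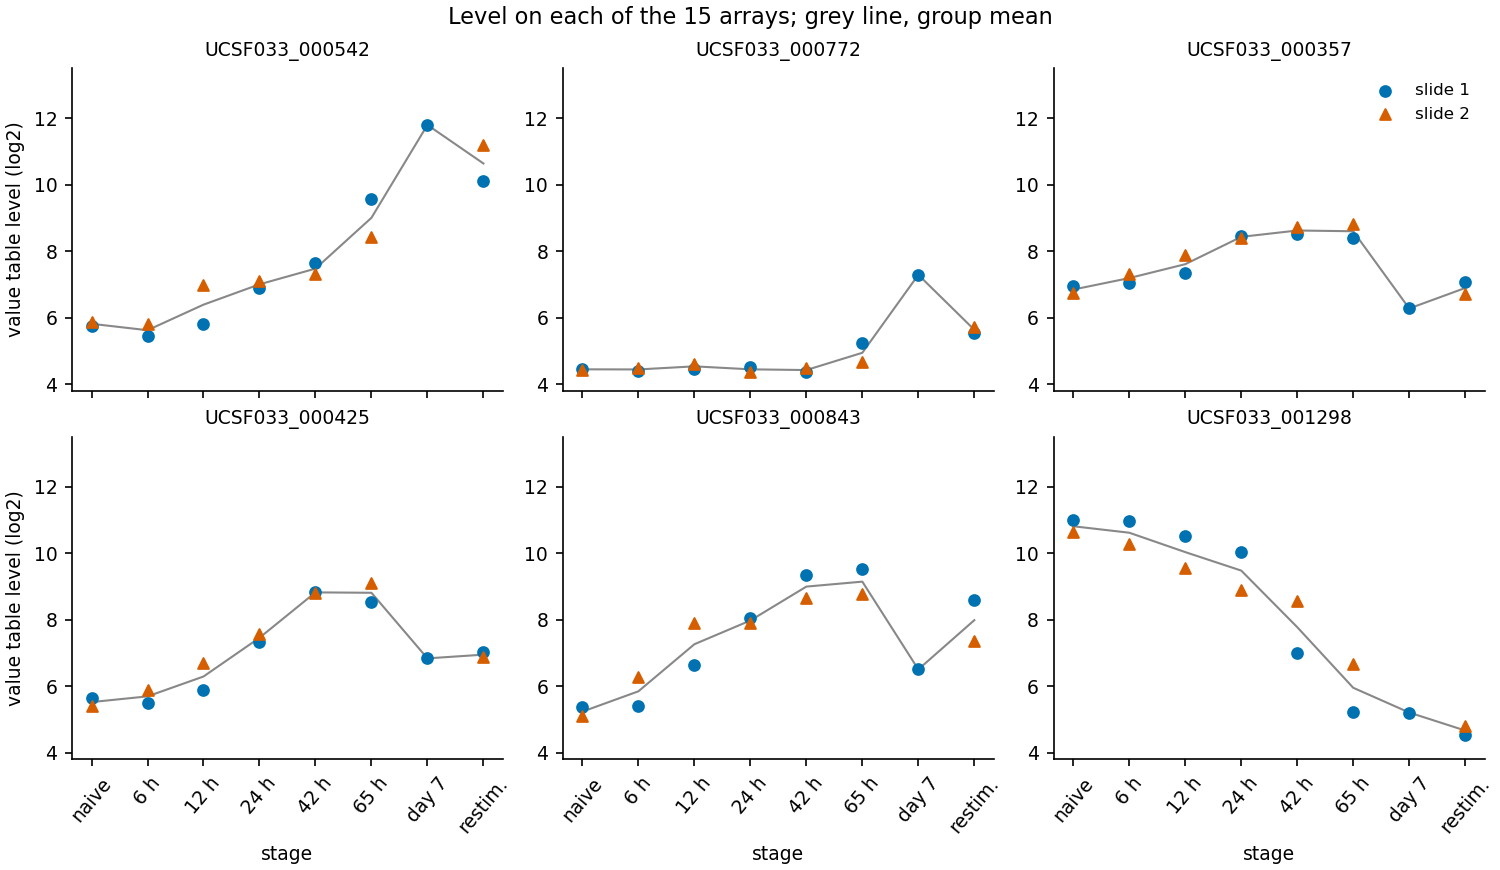
Level of 6 named probes (vertical axis, log2 value of the deposited table) on each of the 15 arrays by stage, with circles for slide 1, triangles for slide 2 and a grey line through group means. UCSF033_000542 and UCSF033_000772 are highest on the day 7 array, UCSF033_000357, UCSF033_000425 and UCSF033_000843 are lower there than on both 65 h arrays, and UCSF033_001298 stays low after its fall.

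Where stimulated probes lay at day 7 was also read without sharing arrays between choice and reading. The end of stimulation, the IL-2 medium and the later time came together at day 7 and cannot be told apart. Probes at least 1 log2 from naive at 65 h were chosen on slide 2 and read on the day 7, 65 h and naive arrays of slide 1. The 101 probes raised on slide 2 had a median of 1.07 above naive at day 7 (quartiles 0.45 and 1.75), against 1.33 at 65 h (quartiles 0.85 and 1.99). The day 7 level was the lower one at 64 of them (63.4%), against 42.0% of all 740 probes, and 52 were still at least 1 log2 above naive at day 7, against 67 at 65 h. The 119 probes lowered on slide 2 had a median of -1.07 relative to naive at day 7 (quartiles -1.79 and -0.79), against -1.71 at 65 h (quartiles -2.23 and -1.16). The day 7 level was the higher one at 93 of these (78.2%), against 57.7% of all probes, and 68 were still at least 1 log2 below naive at day 7, against 95 at 65 h. In both sets the day 7 median thus lay nearer to naive than the 65 h median and on the same side of it.

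Movement was not the same for every probe. Of the raised probes, 22 were at least 1 log2 lower at day 7 than at 65 h and 16 at least 1 log2 higher. Of the lowered ones, 32 were at least 1 log2 higher at day 7 and 7 at least 1 log2 lower. Of these 7, UCSF033_001348, UCSF033_001350, UCSF033_001352, UCSF033_001364, UCSF033_001687 and UCSF033_001986 lay 0.64 to 1.46 above naive at 65 h on slide 1. The 65 h arrays of the 2 slides thus placed them on opposite sides of naive. UCSF033_000743 was below naive there, at -1.58. At day 7, 0 probes of either set lay 1 log2 or more on the other side of naive. The reading rests on 3 arrays with no replicate, so it carries no test, and over all 740 probes the median difference between day 7 and 65 h on slide 1 was 0.07.

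**Figure D5:**
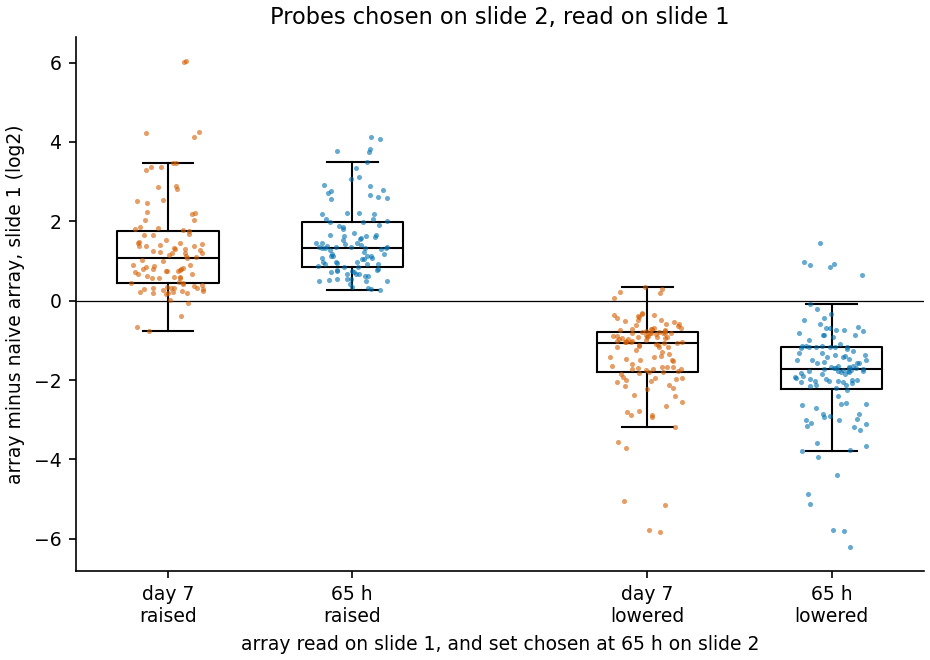
Difference from the naive array on slide 1 (vertical axis, log2) at day 7 and at 65 h, for the 101 probes raised and the 119 probes lowered at 65 h on slide 2. Points are probes, boxes span the quartiles with the median as a line, and whiskers reach the farthest points within 1.5 times the box. The boxes at day 7 lie nearer to 0 than those at 65 h in both sets.

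Compared directly with naive cells, the rested cells differed at 129 of the 740 probes (17.4%) by limma with Benjamini-Hochberg adjustment, 58 higher (7.84%) and 71 lower (9.59%). The 65 h cells differed from naive at 246 probes (33.2%), 103 higher (13.9%) and 143 lower (19.3%). These counts share the naive arrays and have 1 array at day 7 against 2 at 65 h, so the smaller number at day 7 is not a test of return. The day 7 count was 83 when the first and 77 when the second naive array was left out, 65 with only naive, 65 h and day 7 arrays in the fit, and 9 to 30 on 4 normalizations of the scanner signal. Of these, 16 were higher and 7 lower with the 75th percentile over all probes, and 16 were higher and 13 lower with quantile normalization. For 65 h against naive, the 75th percentile over detected probes gave 72 higher and 23 lower. All 4 normalizations used the scanner file of the first 42 h array and covered 704 probes. When that array was left out, an alternative chosen after seeing the data, the same scaling gave more calls in both comparisons with naive. Most of those calls were higher. UCSF033_000542 and UCSF033_000543 were the farthest above naive at day 7. Farthest below was UCSF033_001298, with 5.21 at day 7, against 10.99 and 10.63 in naive cells (difference -5.60, SE 0.79, limma adjusted p = 0.00142). Its 65 h arrays read 6.68 and 5.23, so that the day 7 value lay at the lower of them. UCSF033_001297 next to it had 5.56 at day 7, against 11.38 and 10.82 in naive cells, and 6.86 and 5.57 at 65 h (difference from naive -5.54, SE 0.86, limma adjusted p = 0.00245). Neither was among the 103 probes, and both kept the low level reached under stimulation.

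The probes that stimulation had moved most by 65 h differed in what followed. UCSF033_000798 had the largest rise, with 12.43 and 12.83 at 65 h, against 8.75 and 8.09 in naive cells (difference 4.21, SE 0.37, limma adjusted p = 5.06e-05). At day 7 it read 10.95, below both 65 h values and above both naive values. UCSF033_000843 had the next largest (difference 3.91, SE 0.53, limma adjusted p = 0.000464) and lay within 2 log2 of naive at day 7. UCSF033_000782 had fallen most, with 7.46 and 7.28 at 65 h, against 13.48 and 13.35 in naive cells (difference -6.04, SE 0.32, limma adjusted p = 3.83e-06). It read 8.33 at day 7, above both 65 h values (mean 7.37) and still far below naive. UCSF033_000781 had 10.28 and 10.98 at 65 h, against 15.84 on each naive array (difference -5.21, SE 0.44, limma adjusted p = 4.97e-05), and its day 7 level of 10.78 lay between the 65 h values. Its 2 naive values were identical (SD 0), so they give no measure of the spread between naive arrays.

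Restimulation for 18 h was set beside the rested level for the 103 probes, with the day 7 array shared between the choice and the reading. Over all 740 tested probes both restimulated arrays were below day 7 at 234 (31.6%) and above it at 232 (31.4%). Probes chosen for a high or low day 7 value lean to the other side of it by that choice alone, so the counts below are a description. Both restimulated arrays were below day 7 at 41 of the 60 higher probes, above it at 0, and on either side of it at 19. At the 43 lower probes both were above day 7 in 34, below it in 3 and on either side in 6. For the called probes the counts were 22 of 23 with both restimulated arrays below day 7 and 5 of 6 with both above. Among all the lower probes back near naive, restimulated medians of 0.83 and 0.99 above naive on the first and second array lay between the medians of the class at day 7 and at 65 h. Probes that were higher and farther from naive kept medians of 2.76 and 3.35 above naive on the restimulated arrays, against 3.48 at day 7. UCSF033_000542 read 11.18 and 10.09 on the restimulated arrays, against 11.79 at day 7. UCSF033_000772 read 5.72 and 5.54 after restimulation, against 7.29 at day 7. Those of UCSF033_000357 were 6.72 and 7.06, against 6.27 at day 7, and thus near the naive values of that probe rather than near its 65 h values. The times differ, however, at 18 h against 65 h. In the first stimulation this probe read 7.33 and 7.88 at 12 h and 8.46 and 8.39 at 24 h. The restimulated pair was the most divided of the series, at 123 probes at least 1 log2 apart, and differences between the restimulated and rested cells were not tested here.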

How the data were processed

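RNA extracted with Trizol (50 ng) carried a Cy3 label, per the labels' protocols and the design text. The deposited scanner files hold the intensity of each spot, with Feature Extraction 10.1.1.1 named per the file headers and 10.6 per the submitters' processing notes. The authors' deposited table holds log2 values of 2191 of the 2500 probes. The steps behind it are not given in the sources used here. Its columns had medians of 4.38 to 4.41 and, on 14 arrays, ranked probes as their median brightness did (Spearman correlation 0.999 or more), as values quantile-normalized without background subtraction would. Dim probes therefore sit near that level and their differences are compressed. Scale and centring are not known exactly. For the first 42 h array, table and scanner file correlated at 0.459.

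A probe was detected when over 50% of its spots were well above background, per the file's own spot calls. Group means over all 15 arrays were fitted in R 4.3.3 with lmFit and eBayes of limma 3.58.1, leaving 7 residual degrees of freedom. P-values were adjusted by Benjamini-Hochberg over the 740 tested probes. Slides were read from the file headers. Named probes were the 2 with the largest called difference per direction and comparison and the probe with the largest difference in each class. Alternatives changed the normalization (scanner signal over the 75th percentile, quantile, normexp with offset 50), filter, bound, slide and arrays. Scanner values were floored at 0.635% of the 75th percentile, the 5th percentile of detected values. The procedure was tested on simulated data with normal errors and the same spread at day 7 as in the other groups. It recovered 45% of changes of 1 log2 and 83% of changes of 2 log2, and 5.19% of its calls were false. Errors were drawn for each probe separately, whereas neighbouring probes often moved together here. More probes were given a change than were called between day 7 and 65 h. These rates may therefore not hold for the real comparison. Members, lists and classes were chosen with earlier results of these data known. MicroRNA lists could not be used without probe names.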

Additional observations from a re-analysis of the deposited data

Results flagged for a closer look

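Outside the deposited table lay 309 of the 2500 probes, 192 of them with 1 spot on the array. On the day 7 array 172 of these were detected, against 183 and 163 on the 65 h arrays and 185 and 192 on the naive arrays. In this group, which no comparison above uses, 3 probes were detected on the day 7 array and on neither naive array. Each of the 3 was also detected on at least 1 of the 65 h arrays, so that 0 were detected at day 7 alone among these stages. In the other direction, 15 were detected on both naive arrays and not on the day 7 array.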

How the results depend on the processing

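Calls between day 7 and 65 h numbered 29 and were 0 on scanner signal over the 75th percentile (0 also with the percentile over all probes, with 28 and 27 at an unadjusted p under 0.05), 1 with quantile and 1 with normexp normalization, 16 with no filter, 61 with slide as a block, 0 with 3 groups in the fit (145 unadjusted), and 3 to 66 when 1 array was left out. Without the first 42 h array, an alternative chosen after seeing the data, scanner signal gave 6 (1 higher and 5 lower). Calls between day 7 and naive numbered 129 and were 9, 23, 29 and 30 under those 4 normalizations in that order, 65 with 3 groups, and 77 to 168 when 1 array was left out. For 65 h and naive, 246 calls became 95, 42, 100 and 99, then 163, and 160 to 274. With scaling to the 75th percentile over detected probes, the median difference of all tested probes was -0.11, 0.44 and 0.68 in these 3 comparisons, against 0.0037, 0.055 and 0.066 on the deposited table. The same scaling gave more calls in both comparisons with naive once the first 42 h array was left out.

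The 103 probes by size became 160 and 174 with the 75th percentile over detected or all probes and 61 with normexp. Those back near naive (33) became 51, 53 and 20, those part of the way (24) 38, 37 and 14, and those within the bound at both times (7) 13, 16 and 3, or 12 with quantile normalization. Over all probes 33 were farther from naive, 34 away at day 7 and not at 65 h, and 1 past naive, against 18, 21 and 0. Quantile normalization gave 28 farther. Normexp gave 8 away at day 7 and not at 65 h, and probes detected on all naive, 65 h and day 7 arrays gave 13. With a bound of 0.5 log2 the counts were 252 in all, 58 back, 71 part of the way, 5 past and 47 farther. Another 45 were away at day 7 and not at 65 h, and 26 were small. With 1.5 log2 the counts in the same order were 37, 11, 5, 0, 7, 10 and 4. On the 3 arrays of slide 1, 56 were back and 17 small. With 1 array left out, the ranges were 103 to 145 in all, 28 to 66 back, 21 to 31 part of the way and 0 to 1 past. They were 17 to 21 farther, 19 to 26 away at day 7 and not at 65 h, and 3 to 20 small. The cause of these shifts was not tested. The median difference of the raised set on slide 1, -0.34, was -0.57 with the 75th percentile and -0.57 with normexp, both tried after seeing the data. Over 383 values of the named probes under alternatives, 57 lost a call, 11 gained one and 0 changed sign.

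The labels carry no replicate numbers to pair arrays by, and slide served as the block instead. Microarray detection limits dim probes, and 1 array at day 7 limits all of its values.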
